A study of Mus musculus with 4 samples.

Results

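The enzymes that add or remove acetyl and methyl groups on histones were followed over 4 sorted mouse blood cell populations. The set was defined by gene symbol: histone deacetylases (Hdac), sirtuins (Sirt), lysine demethylases (Kdm), lysine methyltransferases (Kmt, Setd, Suv39h and Ehmt), arginine methyltransferases (Prmt) and lysine acetyltransferases (Kat). Of 34945 probe sets annotated to exactly 1 gene symbol, 175 matched, for 73 of 18193 genes. Mature granulocytes, haematopoietic progenitor cells (HPC), and the long-term (LT-HSC) and short-term (ST-HSC) repopulating fractions of haematopoietic stem cells were each measured on 1 single-channel Affymetrix array. The study is titled as one on cloning by nuclear transfer, in which such cells were donors, and the arrays recorded the expression profile of each donor type. Granulocytes came from bone marrow, sorted as cells of high granularity with strong Gr-1, at a purity of 99.4% by morphology per the labels. The other 3 populations were c-Kit enriched and free of lineage antigens, with HPC being Sca-1 negative, LT-HSC Sca-1 positive without CD34 and ST-HSC Sca-1 positive with CD34. The cells were handled in emptied oocyte coats (zonae pellucidae), total RNA of 50 to 200 cells per type was amplified in 2 rounds, and no strain, age, sex, genotype or treatment of the mice is given in the sources used here.

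Histone acetylation loosens chromatin and is laid down by acetyltransferases and removed by deacetylases. Methylation carries different messages by position: methyl groups on lysine 4 of histone H3 (H3K4) mark active promoters and enhancers, those on lysine 9 and lysine 27 mark silent chromatin, and those on lysine 36 mark transcribed gene bodies. In blood formation several of these enzymes are known regulators, among them Kdm1a and Kmt2a, and mature granulocytes are known for strongly condensed, lobed nuclei.

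With 1 array per population there was no replicate and no test, so every difference below is a description of these 4 arrays. Signals are linear probe set intensities, and those under the pooled median of all arrays, 120.1, were raised to that floor before log2. Where several probe sets read a gene, the one of highest mean signal stood for it, and a gene was called where it differed by at least 2-fold, in 1 direction, from each array it was compared with. The spread between probe sets of 1 gene was the only spread that could be computed. It holds no variation between animals, sorts, amplifications or arrays. Its SD for members was 0.97 log2 units for the difference between granulocytes and the mean of the other arrays, 0.68 for HPC against both stem cell arrays and 0.72 for LT-HSC against ST-HSC (41 members, 113 probe sets). The threshold of 1 log2 unit is close to 1 SD of this spread between probe sets for granulocytes and somewhat above 1 SD for HPC and LT-HSC. Small differences carry little weight. Of the 73 members, 71 lay above the floor on at least 1 array (97.3%, against 78.6% of all genes) and 53 on all 4. Hdac8, a class I deacetylase, and Prmt8, known from brain, were under the floor on every array.

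The array labels were set against markers. All 8 granulocyte markers lay above the floor in granulocytes, where their signals summed to 317804, against 1 of 8 in HPC (430.5), 4 of 8 in LT-HSC (14124) and 2 of 8 in ST-HSC (542). The 4 on the LT-HSC array were S100a8, S100a9, Ltf and Camp, at 11.9%, 3.19%, 5.66% and 5.07% of their granulocyte signals. Mmp8 and Mmp9, at 45532.5 and 48873.6 in granulocytes, were under the floor in LT-HSC (77.4 and 65.8). So were Cxcr2 and Itgam (34.3 and 7.9), at 2113 and 2570 in granulocytes. The 8 stem and progenitor markers summed to 1186 in granulocytes, against 42102 in LT-HSC, 35406 in ST-HSC and 21173 in HPC. The 5 progenitor markers summed to 13424 in granulocytes, against 3801 in LT-HSC, 22512 in ST-HSC and 73452 in HPC, but Csf1r alone made 13089 of the granulocyte sum, and Elane, Ctsg and Prtn3 were under the floor there. Of 4 cumulus cell markers 3 lay above the floor in granulocytes, 2 in HPC and none in LT-HSC or ST-HSC, and of 6 oocyte markers 3 did so in granulocytes, 2 in LT-HSC, 1 in ST-HSC and 1 in HPC. Of 3 macrophage markers C1qa and C1qb were under the floor everywhere, while Adgre1 lay above it on all 4 arrays, at 1102 in granulocytes, 250.3 in LT-HSC, 140.4 in ST-HSC and 298 in HPC. Of 3 megakaryocyte markers 3 lay above the floor in ST-HSC, 2 in LT-HSC, 1 in HPC and 1 in granulocytes. The megakaryocyte marker Pf4 had 1444 in ST-HSC, 472 in LT-HSC, 32.7 in HPC and 119 in granulocytes. The ratio of 3′ to 5′ signal, which grows as amplification shortens transcripts, was 5.75 for Actb and 12.4 for Gapdh in granulocytes, 14.6 and 14.9 in LT-HSC, 16.1 and 12.4 in ST-HSC, and 12.2 and 17.8 in HPC. The part of these differences in the results was not tested. Between 48.7% and 52.5% of probe sets lay above the floor.

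Granulocytes were set against each of the other populations to see which of the enzymes set the mature cells apart. In granulocytes 13 members were at least 2-fold lower than on each other array and 4 were at least 2-fold higher. The lower members were Prmt1, Prmt3, Prmt5, Prmt7, Hdac2, Sirt3, Kat2a, Kat14, Kdm1a, Kdm2b, Kdm6a, Ehmt2 and Setd6, and the higher members were Sirt7, Kdm7a, Kdm4c and Kmt5a. The 13 lower members make 17.8% of the set, beside 12.6% of all genes and 16.0% of genes above the floor on at least 1 array. The 4 higher members make 5.48%, beside 8.72% and 11.1%. So the share of lower members was near that of other measured genes, and the share of higher members was below it. Among the 56 members whose highest signal reached 432.2, the pooled 75th percentile, the lower ones made 23.2%, beside 25.4% of all such genes. With the arrays scaled to the hybridization controls, 21 members were lower (28.8%) and 3 higher (4.11%), beside 17.4% and 4.51% of all genes. The median difference of the members was -0.49 log2 units, against 0 for all genes and -0.04 for genes above the floor. From whole sorted populations, fewer cells with a transcript and less of it in each cell cannot be told apart.

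**Figure D1:**
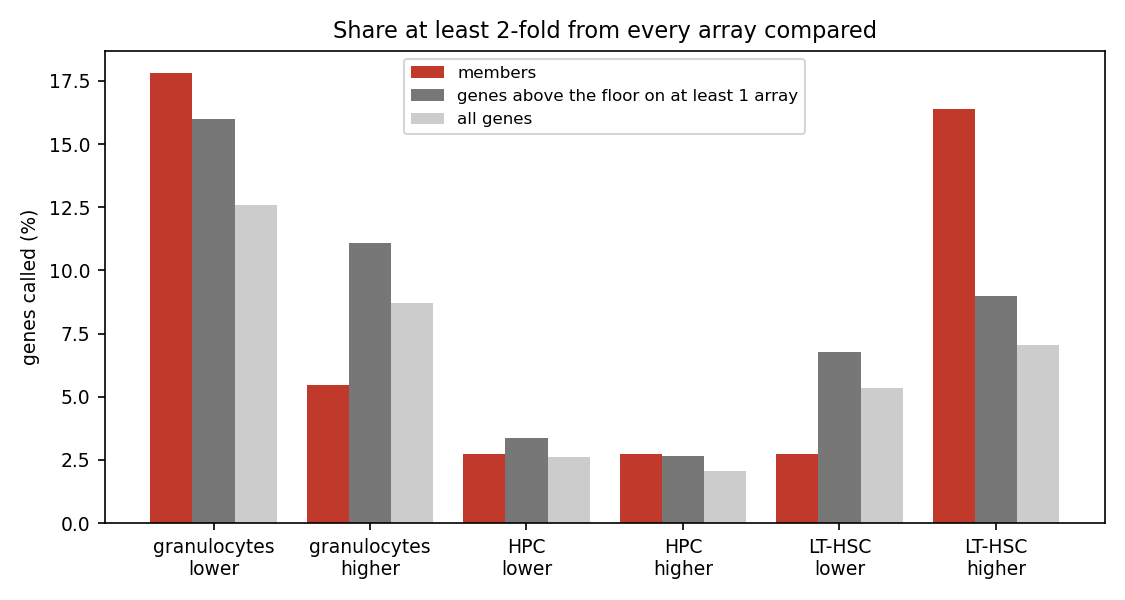
Bars give the percent of genes at least 2-fold from every array compared, for the 73 members, the 14292 genes above the floor on at least 1 array and all 18193 genes. The members stand above both kinds of background most clearly for genes higher in LT-HSC than in ST-HSC (16.4%, beside 8.97% and 7.05%), while their 17.8% lower in granulocytes lies close to 16.0%.

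Arginine methyltransferases, which methylate histones and many RNA-binding proteins, had the lowest median of the 10 role lists in granulocytes, -2.05 log2 units, with 4 of 8 lower and none higher. These 4 make 50.0% of a short list, beside 12.6% of all genes and 16.0% of genes above the floor. Prmt3, whose known substrate is a protein of the small ribosomal subunit, had a signal of 103 in granulocytes, under the floor, and of 2699.5 in LT-HSC, 3804 in ST-HSC and 2761 in HPC. It was at least 22.5-fold lower in granulocytes, but 1 of its 3 other probe sets above the floor pointed the opposite way and the median over its probe sets ended the call. Prmt5, the main enzyme of symmetric dimethylation, had 87.2 in granulocytes and 932, 1027 and 968 in LT-HSC, ST-HSC and HPC, at least 7.76-fold lower, from a single probe set with the suffix _s_at. Prmt1, the main enzyme of asymmetric dimethylation, had 132 in granulocytes and 545, 667 and 594 in LT-HSC, ST-HSC and HPC (4.13-fold lower). For Prmt1 and Prmt5 the other 3 arrays lay close together. The call of Prmt1 was lost with the floor at the pooled 75th percentile (-0.47 log2 units, against -2.18), and Prmt5 had no value without probe sets of that suffix. Carm1, another asymmetric enzyme outside the name pattern, had 907 in granulocytes and 617 to 1017 elsewhere. Prmt7, which places single methyl groups, had 22.8 in granulocytes against 498, 783 and 943 in LT-HSC, ST-HSC and HPC (at least 4.14-fold lower), although its second probe set read 286 in granulocytes, between 161 in LT-HSC and 709 in ST-HSC. The call of Prmt7 was lost with the higher floor (-0.73, against -2.58) and with the median over probe sets. Prmt9, which methylates a splicing factor, did not share the difference, with 1831 in granulocytes and 1274, 1778 and 1600.1 in LT-HSC, ST-HSC and HPC. Prmt2 and Prmt6 had 397 and 116 in granulocytes and varied between the stem cell arrays, as given below.

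The promoters of the members with the largest lower differences (Prmt3, Hdac2 and Sirt3), of a second arginine methyltransferase (Prmt1) and of the member with the largest higher difference (Sirt7) are shown because these genes moved together or apart on the granulocyte array. They are RefSeq sequences of the build GRCm38.p6, from 250 bases before to 50 after the first start site listed, and capitals mark every match to a searched motif on either strand.
Prmt3, chr7:49778108-49778407, plus strand: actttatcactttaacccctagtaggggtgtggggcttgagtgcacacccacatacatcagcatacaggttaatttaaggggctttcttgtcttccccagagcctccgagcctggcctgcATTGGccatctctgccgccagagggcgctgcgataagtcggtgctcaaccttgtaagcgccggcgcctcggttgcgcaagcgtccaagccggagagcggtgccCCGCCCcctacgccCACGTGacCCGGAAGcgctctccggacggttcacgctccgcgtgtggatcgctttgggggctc
Prmt1, chr7:44986371-44986670, minus strand: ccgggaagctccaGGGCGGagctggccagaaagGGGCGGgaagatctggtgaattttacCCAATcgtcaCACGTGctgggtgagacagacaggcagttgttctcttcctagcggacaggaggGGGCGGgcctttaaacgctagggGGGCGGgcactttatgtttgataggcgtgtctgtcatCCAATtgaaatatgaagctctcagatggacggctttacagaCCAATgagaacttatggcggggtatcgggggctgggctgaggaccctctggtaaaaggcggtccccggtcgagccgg
Hdac2, chr10:36974294-36974593, plus strand: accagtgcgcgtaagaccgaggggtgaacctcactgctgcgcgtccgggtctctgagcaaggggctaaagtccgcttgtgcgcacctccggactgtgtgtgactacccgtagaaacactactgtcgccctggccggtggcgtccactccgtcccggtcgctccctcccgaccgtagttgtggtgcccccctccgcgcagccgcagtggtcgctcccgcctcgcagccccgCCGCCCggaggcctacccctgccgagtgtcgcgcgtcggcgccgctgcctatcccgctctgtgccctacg
Sirt3, chr7:140882260-140882559, minus strand: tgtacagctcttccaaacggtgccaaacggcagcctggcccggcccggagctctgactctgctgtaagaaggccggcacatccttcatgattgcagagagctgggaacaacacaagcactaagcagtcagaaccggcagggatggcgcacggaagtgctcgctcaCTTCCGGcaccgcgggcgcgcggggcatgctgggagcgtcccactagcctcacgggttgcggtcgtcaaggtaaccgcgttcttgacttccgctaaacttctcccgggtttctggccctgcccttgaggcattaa
Sirt7, chr11:120624965-120625264, minus strand: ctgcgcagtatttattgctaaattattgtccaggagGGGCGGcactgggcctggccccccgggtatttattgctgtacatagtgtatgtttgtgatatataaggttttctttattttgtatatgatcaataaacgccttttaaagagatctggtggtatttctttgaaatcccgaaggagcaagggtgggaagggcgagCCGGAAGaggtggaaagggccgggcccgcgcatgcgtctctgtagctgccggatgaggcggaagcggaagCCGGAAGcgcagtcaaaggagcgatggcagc
The motifs searched were the GC box GGGCGG, the ETS motif CCGGAAG, the CCAAT box CCAAT, the E box CACGTG, 2 E2F forms (TTTCCCGC and TTTGGCGC) and the TATA box TATAAA, and matches may overlap, as those of the GC box and the ETS motif do in the promoter of Setd6. Promoters were matched by symbol for 61 of the 73 members. The E box stood in 4 of 13 promoters of members lower in granulocytes (Prmt1, Prmt3, Ehmt2 and Kdm6a), in none of the 4 of higher members, in 11.5% of all 61 and in 7.24% of 27025 promoters of all genes. The GC box stood in 8 of 13 promoters of the lower, 3 of 4 of the higher and 60.7% of all member promoters, against 35.9% of all genes. The ETS motif stood in 3 of 13 of the lower, 2 of 4 of the higher and 21.3% of all member promoters, against 9.12% of all genes, and the CCAAT box in 4 of 13, 1 of 4 and 44.3%, against 37.9%. Prmt5 and Prmt7, not shown, had larger lower differences than Prmt1. Of the searched motifs the promoter of Prmt5 held the CCAAT box alone and that of Prmt7 the GC box alone. No lower or higher member promoter held a match to the TATA box or the E2F forms, which stood in 14.2%, 1.11% and 0.537% of all promoters. The median count of CG dinucleotides was 24 in promoters of lower members, 17.5 in those of higher members, 20 in all members and 7 in all genes. These matches describe the letters of 1 window per gene and are no measured binding sites.

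Among the class I deacetylases, the catalytic subunits of the nuclear corepressor complexes, Hdac2 and Hdac1 differed in size. Hdac2 had a signal of 209 in granulocytes, 4569.7 in LT-HSC, 3806 in ST-HSC and 6442 in HPC, 18.2-fold lower in granulocytes. A second probe set of Hdac2 gave 115 in granulocytes and 2514, 1632 and 3107 in LT-HSC, ST-HSC and HPC, and the call held under all 7 alternative settings. Hdac1, its close paralog and partner in the same complexes, had 1543 in granulocytes and 2778, 3664 and 4550.5 in LT-HSC, ST-HSC and HPC, a difference of -1.22 log2 units where that of Hdac2 was -4.53. Hdac1 was 1.80-fold lower than the nearest array and was not called. Hdac3, the enzyme of the NCoR complexes, had 1522 in granulocytes and 1786, 832 and 1613 in LT-HSC, ST-HSC and HPC, so that granulocytes lay within the range of the others.

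None of the 7 class II and class IV deacetylases was called in granulocytes, and their median was -0.82 log2 units. Hdac5, a class IIa enzyme that shuttles between nucleus and cytoplasm, had 1787 in granulocytes and 2141, 970.2 and 1716 in LT-HSC, ST-HSC and HPC. Hdac7, of the same class, lay just outside the threshold, with 182 in granulocytes against 637, 444 and 351 in LT-HSC, ST-HSC and HPC (1.93-fold lower). Hdac4 depended on the probe set. Its representative gave 302 in granulocytes and 325 to 387 elsewhere, while another gave 879 in granulocytes and 126 to 165 elsewhere, 5.34-fold higher, and a further one 252 in granulocytes with all other arrays under the floor. Hdac6, the tubulin deacetylase, was under the floor in granulocytes (63.8) and in HPC (50.1) and stood at 230.4 in LT-HSC and 342 in ST-HSC. Hdac10, a deacetylase of polyamines, had 141 in granulocytes and 640.1, 417 and 168 in LT-HSC, ST-HSC and HPC. Hdac9 stayed near or under the floor, at 90.7 in granulocytes and 5.2 to 140.3 elsewhere, and Hdac11 was under the floor in granulocytes (34.7).

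The 7 sirtuins, deacylases that consume NAD, split, with 1 lower, 1 higher and a median of 0.02. Sirt3, the main mitochondrial deacetylase, had 206 in granulocytes and 4615, 3528 and 3782 in LT-HSC, ST-HSC and HPC, 17.1-fold lower. Sirt7, a nucleolar enzyme linked to ribosomal RNA synthesis, ran the opposite way, with 12914 in granulocytes and 1980.3, 1019 and 1921 in LT-HSC, ST-HSC and HPC, 6.52-fold higher. Both genes rest on 1 probe set, and both calls held under all 7 alternatives. The median over probe sets, the removal of suffixes _x_at and _s_at and the removal of dim genes could not change either value. Sirt1, the best known nuclear sirtuin, had 229 in granulocytes against 824, 765 and 446 in LT-HSC, ST-HSC and HPC, 1.94-fold lower and just outside the threshold. Sirt6, a chromatin deacetylase, had 88.0 in granulocytes and 176 to 308 elsewhere. Sirt2, a mostly cytoplasmic enzyme, had 621 and 359.5 to 707, the mitochondrial Sirt5 had 418 and 276 to 378, and the mitochondrial Sirt4 had 126 and 78.1 to 131 in granulocytes and the other arrays. Granulocytes lay within the range of the other arrays for Sirt2 and Sirt4 and just above it for Sirt5, of which a second probe set gave 8.4 in granulocytes and 195 to 313 elsewhere.

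Of 8 lysine acetyltransferases 2 were lower in granulocytes and none higher, and the median was -0.90. Kat2a, the GCN5 enzyme of the SAGA and ATAC coactivators, had 116 in granulocytes and 584, 874 and 572 in LT-HSC, ST-HSC and HPC (at least 4.76-fold lower). Kat14, a partner of Kat2a in ATAC, had 313 in granulocytes and 1918, 1163 and 2014 in LT-HSC, ST-HSC and HPC (3.71-fold lower), and its second probe set above the floor ran the same way. The call of Kat14 held under all 7 alternatives, while that of Kat2a was lost with the higher floor (-0.62 log2 units, against -2.47). A further probe set of Kat2a differed less, at 290.4 in granulocytes and 355 to 483 elsewhere. Kat2b, the PCAF paralog of Kat2a, had 1519 in granulocytes and 2899, 2074 and 3114 in LT-HSC, ST-HSC and HPC, within 2-fold of LT-HSC and ST-HSC. Kat7, the HBO1 enzyme of replication origins, had 874 in granulocytes and 1366 to 2364 elsewhere. Kat8, the MOF enzyme that acetylates lysine 16 of histone H4, was under the floor in granulocytes (30.9) and in ST-HSC (114), against 366 in HPC and 311 in LT-HSC. Kat5, known as Tip60, had 687 in granulocytes and 374 to 575 elsewhere, Kat6a, known as MOZ, had 1158 and 398 to 1056, and its paralog Kat6b had 211 and 237 to 347.

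Of 6 H3K4 demethylases 1 was lower in granulocytes (16.7%), and of 12 other demethylases 2 were lower and 2 higher (16.7% each), so that they differed within families. The shares of genes above the floor were near these, at 16.0% lower and 11.1% higher. Kdm1a, or LSD1, which removes methyl groups from H3K4 within the CoREST complex, had 1036 in granulocytes and 9539, 3709 and 9557 in LT-HSC, ST-HSC and HPC (3.58-fold lower), with 386 and 965 to 2190 on a second probe set. Kdm2b, an H3K36 demethylase that brings a Polycomb complex to CpG islands, had 1293 in granulocytes and 14309.9, 10253 and 13277 in LT-HSC, ST-HSC and HPC (7.93-fold lower), with 560 and 4775 to 7042 on its second probe set. Its paralog Kdm2a had 988 in granulocytes and 849 to 1463 elsewhere, so only 1 of this pair was called. Kdm6a, or UTX, which removes H3K27 methylation, had 546 in granulocytes and 1245, 1827 and 1134 in LT-HSC, ST-HSC and HPC, 2.08-fold lower and just inside the threshold. Kdm6b, or JMJD3, of the same specificity and known to be induced in inflammation, pointed the other way at 3289 in granulocytes against 1841, 1677 and 1449 in LT-HSC, ST-HSC and HPC, 1.79-fold higher and just outside it. Scaling to a common 75th percentile ended the call of Kdm6a, and so did the median over its probe sets.

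Kdm7a and Kdm4c were the demethylases higher in granulocytes. Kdm7a, which acts on methylated H3K9 and H3K27, had 5889 in granulocytes and 979.7, 829 and 614 in LT-HSC, ST-HSC and HPC (6.01-fold higher), and a second probe set gave 2154 in granulocytes and 346 to 1177 elsewhere. Its other 3 probe sets were dim, and the median over all of them ended the call (0.19 log2 units, against 2.89). Kdm4c, of the family that acts on H3K9 and H3K36, had 724 in granulocytes and 218, 156 and 142 in LT-HSC, ST-HSC and HPC (3.32-fold higher), from 1 probe set, a call lost with the higher floor (0.75 log2 units, against 2.10). Its relatives differed from it: Kdm4a was under the floor in granulocytes (13.6) and reached 253 in HPC and 286 in LT-HSC, Kdm4b had 274 in granulocytes and 53.0 to 227 elsewhere, and Kdm4d had 16.1 and 62.3 to 159. The H3K9 demethylases Kdm3a (1858 in granulocytes, 2326 to 3567 elsewhere) and Kdm3b (4537 and 3688 to 4903) stayed within 2-fold of every array. The H3K4 demethylases of the Kdm5 family were not called either, with 2021, 1027 and 1274 for Kdm5a, Kdm5b and Kdm5c in granulocytes and 980.4 to 1939, 487 to 1736 and 663 to 1774 elsewhere. Kdm1b, a paralog of Kdm1a, reached the floor only in HPC (122) and had 55.4 in granulocytes.

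**Figure D2:**
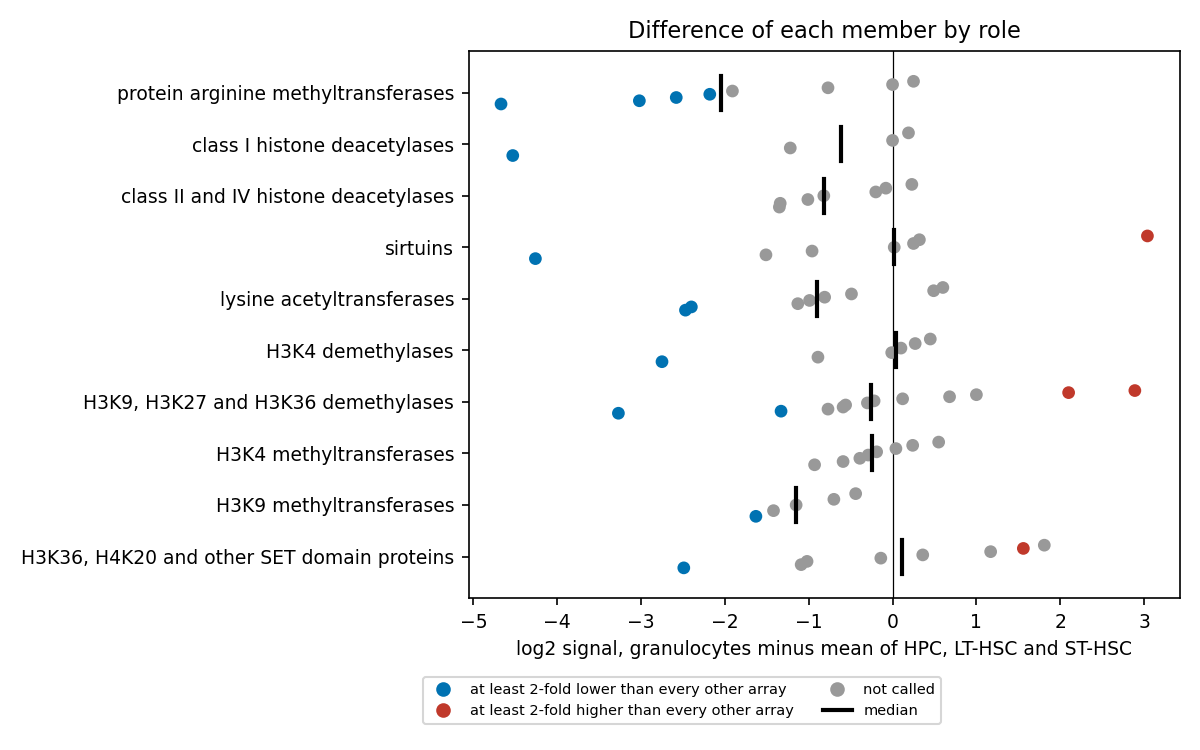
Points are the 73 members by role, placed by the log2 signal in granulocytes minus the mean of the other 3, coloured by call, with the median of each list as a bar. Arginine methyltransferases have the lowest median (-2.05), H3K4 methyltransferases cluster between -0.93 and 0.55 with no call, and sirtuins spread from -4.26 to 3.04.

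The 8 H3K4 methyltransferases lay between -0.93 and 0.55 log2 units in granulocytes, and none was called. Kmt2e, which carries a SET domain but is not known to methylate H3K4 itself, had 3646 in granulocytes and 4389, 4686 and 5319 in LT-HSC, ST-HSC and HPC. Kmt2d, which marks enhancers, had 1714 in granulocytes and 1386 to 1894 elsewhere. Setd1b, of the COMPASS complexes, had 1505 in granulocytes and 1549.9 to 2089.8 elsewhere, its paralog Setd1a had 552 and 654 to 969, and Setd7, which adds single methyl groups, had 2868 and 2187 to 2939.8. Kmt2a, the MLL protein needed for stem cell maintenance, had 974 in granulocytes and 842 to 1452 elsewhere, and Kmt2b, its paralog, 856 and 951 to 2258. Kmt2c, another enhancer enzyme, had 3082 in granulocytes and 1335 to 2953 elsewhere.

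That evenness did not hold for every probe set of these genes. A second probe set of Kmt2a gave 11.0 in granulocytes and 1663, 805 and 1203 in LT-HSC, ST-HSC and HPC, at least 6.70-fold lower. For Kmt2c 1 of 4 probe sets gave 2214 in granulocytes and 847, 199.7 and 109 in LT-HSC, ST-HSC and HPC, and for Kmt2e 3 of 6 were at least 2-fold higher in granulocytes, such as 3976 against 1734, 1066 and 263 in LT-HSC, ST-HSC and HPC. In all, 5 members that were not called had another probe set past 2-fold in granulocytes: 4 members (Hdac4, Kmt2c, Kmt2e and Kmt5b) with 7 probe sets higher, and Kmt2a with 1 lower. Of the 47 members with several probe sets these are 8.51% and 2.13%, beside 6.88% and 3.84% of 9010 such genes. Which transcript forms these probe sets read is not annotated in the tables used here.

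**Figure D3:**
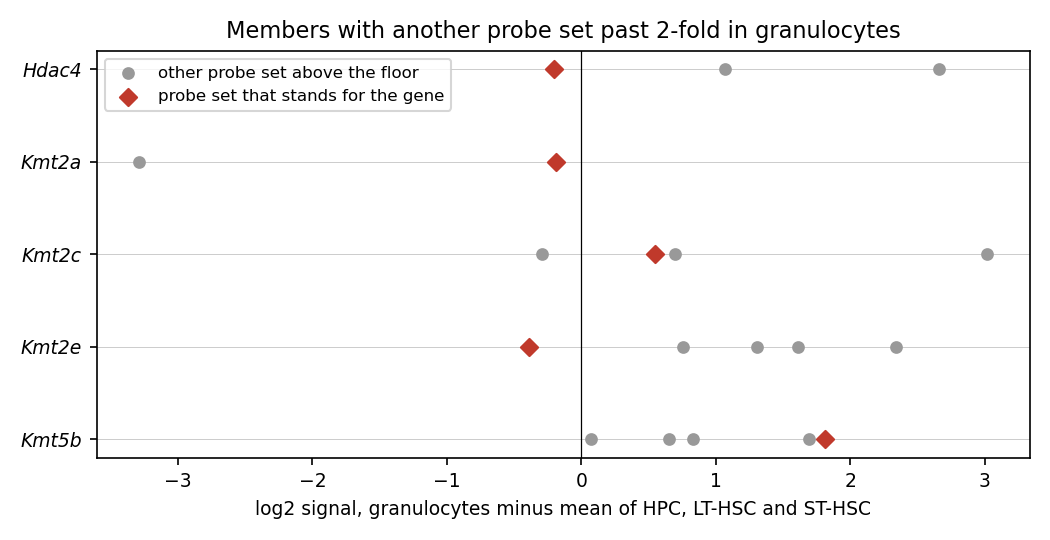
For the 5 members with a further probe set past 2-fold in granulocytes, each point is a probe set above the floor on at least 1 array, placed by its log2 signal in granulocytes minus the mean of the other 3. The probe set that stands for the gene lies at -0.20 for Hdac4, -0.19 for Kmt2a, 0.55 for Kmt2c and -0.39 for Kmt2e while others reach 3.02 (Kmt2c) or -3.29 (Kmt2a), and all of those of Kmt5b lie above 0.

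All 5 measured H3K9 methyltransferases, the enzymes of silent chromatin, were on the lower side in granulocytes, from -1.63 to -0.44 log2 units with a median of -1.15, but 1 was called. Ehmt2, or G9a, had 307 in granulocytes and 1086, 859 and 924 in LT-HSC, ST-HSC and HPC (2.80-fold lower), a call lost with the higher floor and with the median over probe sets. Ehmt1, its partner in a heterodimer, had 473 in granulocytes and 1686, 764 and 1589 in LT-HSC, ST-HSC and HPC. Setdb1, which silences retroelements, had 476 in granulocytes and 914 to 1327 elsewhere (1.92-fold lower), and Setdb2 had 427 and 554 to 1029. Suv39h2, of constitutive heterochromatin, lay above the floor in HPC alone, so that its difference in granulocytes rests on that array, and Suv39h1 was not analysed here.

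The 8 remaining SET domain and H4K20 enzymes had a median of 0.11, with Setd6 lower and Kmt5a higher. Kmt5a, which places the first methyl group on lysine 20 of histone H4 and is known for its part in mitosis, had 3894 in granulocytes and 1480.4, 859 and 1794 in LT-HSC, ST-HSC and HPC (2.17-fold higher). A second probe set of Kmt5a gave 1682 in granulocytes and 663 to 1027 elsewhere, and the call was lost with the median over probe sets and under scaling to the hybridization controls. Kmt5b, which adds further methyl groups at that lysine, had 2815 in granulocytes and 675, 1676 and 456 in LT-HSC, ST-HSC and HPC, within 2-fold of ST-HSC, and its paralog Kmt5c had 462 in granulocytes and 443 to 609 elsewhere. Setd6, a methyltransferase of non-histone proteins, had 127 in granulocytes and 608, 714 and 837 in LT-HSC, ST-HSC and HPC (4.78-fold lower), and its second probe set read 17.0 in granulocytes and 353 to 549 elsewhere, but the call was lost with the higher floor (-0.72, against -2.49). Setd2, the enzyme of H3K36 trimethylation, had 3232 in granulocytes and 2351, 1961 and 3431 in LT-HSC, ST-HSC and HPC and was not called. Setd3, an actin methyltransferase, had 492 in granulocytes and 849 to 1129 elsewhere, Setd4 145 and 225 to 413, and Setd5 502 and 166 to 286, the last 1.75-fold higher.

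Partners of these enzymes, which carry other names, were set beside them. Of 25 subunits of deacetylase complexes, all above the floor on at least 1 array, 8 were lower in granulocytes and none higher. Of all genes 12.6% were lower and 8.72% higher, and of genes above the floor 16.0% and 11.1%. The median of the 25 was -0.39. Chd3, a remodeler of the NuRD complex, had 66.6 in granulocytes and 852, 701 and 934 in LT-HSC, ST-HSC and HPC (at least 5.84-fold lower), and Mta1 of the same complex 169 and 681, 698 and 779 in LT-HSC, ST-HSC and HPC (4.03-fold lower). Tbl1x, of the NCoR complexes, had 819 in granulocytes and 3193 to 4307 elsewhere, and Rbbp7, a histone-binding subunit, 6041 and 18032 to 19616. Rcor2, Rcor3, Sin3a and Chd4 completed the 8, and other probe sets pointed the opposite way for 3 of 5 of Rcor3, 1 of 2 of Sin3a and 2 of 2 of Chd4. Of 37 partners of acetyl- and methyltransferases 8 were lower (21.6%) and 3 higher (8.11%), beside 16.0% and 11.1% of genes above the floor. Their median was -0.22. Clns1a, which delivers substrates to Prmt5, had 4903 in granulocytes and 18041 to 21829.7 elsewhere (3.68-fold lower), Supt7l of SAGA 399.5 and 1517 to 1728, and Dpy30 of the H3K4 methyltransferase complexes 488 and 1426 to 2671. Trrap, Epc1, Msl3 (1950 in granulocytes, 4012 to 4923 elsewhere), Tada2a and Sgf29 were the other lower ones. Msl1 (9597 in granulocytes, 2852 to 3325 elsewhere), Msl2 (5899 and 1842 to 2843) and Ing3 were higher. Msl1, Msl2 and Msl3 form the MSL complex with Kat8, so subunits of 1 complex were called in both directions. The only other probe set of Epc1 and 2 of 3 of Ing3 pointed the opposite way. Of 24 further enzymes outside the name pattern Smyd2 (90.2 in granulocytes, 1809.8 to 2244 elsewhere) and the acetyltransferase Hat1 (440.3 and 1618 to 2214) were lower (8.33%). The coactivator Ncoa1 (3109 and 698 to 772) was higher (4.17%), and the median of the 24 was 0.03. Of the partners of acetyl- and methyltransferases 8 were lower (21.6%) and 2 higher (5.41%) in LT-HSC than in ST-HSC. Over all genes the shares were 5.33% and 7.05%, and over genes above the floor 6.79% and 8.97%. No deacetylase partner was called there.

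HPC were set beside the stem cell arrays to show what differed at the step to progenitors. Few of the enzymes were called: 2 of 73 were at least 2-fold lower in HPC and 2 higher (2.74% each, beside 2.63% lower and 2.08% higher over all genes, and 3.35% and 2.65% over genes above the floor), with a median of 0.10 log2 units. Kdm8, a JmjC protein, was under the floor in HPC at 60.5, against 426 in LT-HSC and 406 in ST-HSC (at least 3.38-fold lower). Hdac10 had 168 in HPC against 640.1 in LT-HSC and 417 in ST-HSC (2.47-fold lower). Both rest on 1 probe set above the floor. Suv39h2 was higher, at 302 in HPC against 18.2 and 24.3 in LT-HSC and ST-HSC (at least 2.52-fold higher), while its 2 other probe sets stayed under the floor on every array. Kdm5d, the Y-linked member of the Kdm5 family, had 474 in HPC against 193 in LT-HSC and 41.0 in ST-HSC (2.46-fold higher), with 54.5 in granulocytes. A further probe set of Kdm5d gave 120.3 in HPC, at the floor, and was under it elsewhere. Another Y-linked gene, Eif2s3y, was above the floor on all 4 arrays, at 2395 in HPC, 1866 in LT-HSC, 827 in ST-HSC and 2635 in granulocytes. Uty, also Y-linked, had 134 in HPC and 155 in granulocytes but was under the floor in LT-HSC (71.4) and ST-HSC (76.1). Xist was above the floor on all 4 arrays, at 160 in HPC, 182.5 in LT-HSC, 187 in ST-HSC and 344 in granulocytes. None of the 4 calls held under every alternative. Kdm5c, the X-linked relative of Kdm5d, lay just outside at 1774 in HPC against 1002 in LT-HSC and 663 in ST-HSC.

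Other probe sets of 5 members were at least 2-fold lower in HPC where the gene was not called. For Kdm6b 2 of 3 probe sets were, with 129.5 in HPC against 575 in LT-HSC and 423 in ST-HSC on one of them, and for Kmt2e the probe set that was bright in granulocytes gave 263 in HPC against 1734 in LT-HSC and 1066 in ST-HSC. Kat2b, Kdm3b and Kdm5b each had 1 such probe set, and Prmt3 had 1 that was higher. These make 10.6% and 2.13% of the members with several probe sets, beside 4.03% and 2.52% of all such genes.

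LT-HSC were compared with ST-HSC, the CD34 negative with the CD34 positive part of the stem cell gate. Here 12 of 73 members were at least 2-fold higher in LT-HSC and 2 lower. The 12 make 16.4% of the set, beside 7.05% of all genes and 8.97% of genes above the floor, and the 2 make 2.74%, beside 5.33% and 6.79%. The median of the members was 0.24 log2 units, with 45 above 0 and 24 below. Among the 56 brighter members the higher ones made 17.9%, beside 11.7% of all such genes. The 12 came from 8 of the 10 role lists, with at most 2 from any list.

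Kdm1a, the H3K4 demethylase, had 9539 in LT-HSC against 3709 in ST-HSC, 2.57-fold higher, and 2190 against 965 on its second probe set. Kdm5b, which removes H3K4 trimethylation, had 1736 in LT-HSC against 487 in ST-HSC (3.56-fold higher), although 1 of 3 other probe sets pointed slightly the other way. Kdm5a was not called, at 1939 in LT-HSC and 1696 in ST-HSC, but 2 of its other probe sets gave 1153 and 1170 in LT-HSC against 134 and 123 in ST-HSC. Kdm4a had 286 in LT-HSC and was under the floor in ST-HSC at 61.9 (at least 2.38-fold higher). Demethylases of 3 families (Kdm1, Kdm4 and Kdm5) were thus among the higher genes. Of the methyltransferases, Kmt2c had 2953 in LT-HSC against 1335 in ST-HSC, Kmt2b 2018 against 951, Ehmt1 1686 against 764 and Prmt2, a coactivator of nuclear receptors, 1332 against 334. Of 3 other probe sets of Kmt2c 2 had the same direction and 1 the opposite, at 1624 in LT-HSC and 1929 in ST-HSC. Kmt2a, not called at 1452 in LT-HSC and 842 in ST-HSC, had the same direction on its second probe set, with 1663 and 805, and Kdm5c had 2 further probe sets at least 2-fold higher in LT-HSC. In all, 3 members that were not called (Kdm5a, Kdm5c and Kmt2a) had another probe set at least 2-fold higher. That makes 6.38% of the members with several probe sets, beside 8.73% of all such genes.

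Deacetylases and acetyltransferases made up the rest. Hdac3 had 1786 in LT-HSC against 832 in ST-HSC, Hdac5 2141 against 970.2 and Hdac11, the class IV enzyme, 486 against 98.8 (at least 4.04-fold higher). A second probe set of Hdac11 differed less, at 229 in LT-HSC and 180 in ST-HSC. Kat6a, an acetyltransferase needed for stem cell maintenance, had 1056 in LT-HSC against 398 in ST-HSC (2.66-fold higher), but the median over its 3 probe sets reversed the sign. Kat8 had 311 in LT-HSC and was under the floor in ST-HSC. The calls of Kdm1a, Kmt2c, Ehmt1, Prmt2 and Hdac5 held under all 7 alternatives, and those of the other 7 were each lost under 1 to 3. The higher floor ended those of Hdac11, Kat8 and Kdm4a, the median over probe sets those of Kat6a, Kdm4a and Kdm5b, leaving out suffixes _x_at and _s_at those of Hdac3 and Kat8, and scaling to a common 75th percentile those of Hdac3 and Kmt2b. Ehmt1 and Hdac5 have 1 probe set each, so settings on probe sets, suffixes or dim genes could not change their values.

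The 2 lower members were Prmt6 and Kmt5b. Prmt6, which methylates arginine 2 of histone H3, had 155 in LT-HSC against 1109 in ST-HSC (7.15-fold lower), with 88.5 and 381 on a second probe set. Prmt6 stood at 538 in HPC and under the floor in granulocytes. Kmt5b had 675 in LT-HSC against 1676 in ST-HSC (2.48-fold lower), and 3 of its 4 other probe sets had the same direction while the last was under the floor on both arrays. The call of Prmt6 held under all 7 alternatives and that of Kmt5b was lost with the median over probe sets. For 4 other members (Prmt3, Prmt7, Setd1a and Setd4) a further probe set was at least 2-fold lower in LT-HSC, which makes 8.51% of the members with several probe sets, beside 6.35% of all such genes.

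Of 8 granulocyte markers 4 lay above the floor on the LT-HSC array, as given above, and the higher members were set beside them. Mmp8 and Mmp9, also bright in granulocytes, were under the floor in LT-HSC. If the largest share seen for a granulocyte marker, 11.9% for S100a8, is taken of each member's granulocyte signal, it comes to between 0.723% (Kdm4a) and 22.7% (Kmt2c) of the difference between LT-HSC and ST-HSC for the 12 higher members. The 3′ to 5′ ratio of Actb was 14.6 in LT-HSC and 16.1 in ST-HSC, and that of Gapdh 14.9 and 12.4. The share above takes amplified signals as proportional to transcripts. Whether granulocyte transcripts or shortened RNA took part in the higher calls was not tested.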

How the data were processed

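One array per population was analysed. The authors deposited 1 linear intensity per probe set and array, and the software that summarised the probes is not given in the sources used here. As deposited, the 2% trimmed mean was the same on all 4 arrays, so no further scaling was applied. Control probe sets (64) were left out, and probe sets were named through GEO's platform annotation (34945 with 1 symbol, 932 with several, 9160 with none of 45037). All 73 member symbols matched RefSeq by gene ID. Intensities were floored at 120.1 and taken to log2. By rule, full values were given for called members and for the member of highest mean signal in each role list. Other members, some near the threshold with full values, and further probe sets were described after their values were seen. Members and lists were chosen with earlier results of these data known. No test was possible with 1 array per group. The calling was tested on simulated data. In all, 7 alternatives were tried. Array number limits the precision. Python 3.11.15, numpy 2.4.6, pandas 2.3.3 and matplotlib 3.10.9 were used.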

Additional observations from a re-analysis of the deposited data

How the results depend on the processing

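Under 7 alternative settings, the log2 differences of called members had the direction reported in all 118 values for granulocytes and in 22 of 26 for HPC, where the other 4 were 0 (Kdm8 and Suv39h2 with the higher floor, Kdm5d and Suv39h2 with the median over probe sets). For LT-HSC against ST-HSC 91 of 94 had it, 2 were 0 (Kat8 and Kdm4a with the higher floor) and Kat6a reversed, at -0.34 with the median over the probe sets of a gene. The cause was not tested. All settings reuse the same 4 arrays on members picked for their difference, and some settings cannot change a value. These counts are therefore no independent support. With the floor at the pooled 75th percentile 8 members were lower in granulocytes, none was lower and none higher in HPC (0 and 0), and the medians were 0 in granulocytes and 0 in LT-HSC; by construction this setting flattens dim genes. With the median over probe sets the medians were -0.33 in granulocytes and 0.07 in LT-HSC, and 4 members were lower and 1 higher in HPC. Without probe sets of suffix _x_at or _s_at 4 were lower in HPC. With arrays scaled to a common 75th percentile the medians were -0.33 in granulocytes, 0.25 in HPC and 0.13 in LT-HSC. With scaling to 18 hybridization controls 21 members were lower in granulocytes and the medians were -0.92, 0.27 and 0.44 in granulocytes, HPC and LT-HSC. With dim genes left out the granulocyte median was -0.64, against -0.39 for all such genes, and 1 member was lower and 1 higher in HPC. The causes of these shifts were not tested. No paired analysis was possible because each population has 1 array. Signals near the floor limit what can be seen of dim members, 2 of which were under it on every array.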
